A study of Mus musculus with 4 samples.

Results

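The platelet-derived growth factor (PDGF) family was followed across 4 arrays by its 4 ligand genes, Pdgfa, Pdgfb, Pdgfc and Pdgfd, and its 2 receptor genes, Pdgfra and Pdgfrb. The 6 genes were listed by name and chosen by their family, with earlier array levels of these same data known, and were matched by symbol in the platform annotation. They make up 6 of the 18193 genes on the array with a single symbol. They are read by 14 probe sets, and the main probe set of a gene was selected on its mean level, the highest among that gene's probe sets. Messenger RNA was measured in SVEC4-10 cells, a mouse endothelial line transformed with SV40. The groups, with 1 array each, were untreated cells, cells transduced with a lentiviral vector without insert (the vector array), and cells given that backbone with a hairpin RNA aimed at Mical2 or at Mical3. Transduced cells were selected with blasticidin, and the untreated cells were not. Each array held RNA pooled from 3 biological replicates, so no spread between replicates can be seen, no test was possible, and the number of arrays limits the precision. Values are log2 expression levels or log2 differences, and fewer expressing cells and less RNA per cell cannot be told apart.

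PDGF ligands are secreted dimers that drive division and migration of mesenchymal cells. PDGF-A and PDGF-B are cut inside the cell by proprotein convertases, whereas PDGF-C and PDGF-D are released as latent proteins and activated outside the cell by proteases of the plasminogen activator kind. The receptors are tyrosine kinases that pair when ligand binds: PDGFR-alpha takes up PDGF-A, PDGF-B and PDGF-C, and PDGFR-beta takes up PDGF-B and PDGF-D. In a growing vessel, endothelial cells secrete PDGF-B, and pericytes, the cells that coat the vessel, carry PDGFR-beta and are drawn to it.

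The DNA just upstream of the start of a pair of the members is shown because Pdgfra had a wide spread over the arrays and Pdgfc, which carries a motif of an actin-regulated factor there, a narrow one. Sequences are from RefSeq (GRCm38.p6, plus strand), cover 250 bases up to the base before the annotated start, and are written 5′ to 3′. The Pdgfra stretch is chr5:75152001-75152250 and the Pdgfc stretch chr3:81036166-81036415. The Pdgfra start used is not the most upstream that RefSeq annotates. Capitals mark the 1 match in these stretches to any of 5 searched motifs, a CArG box, the site of SRF, which begins 17 bases before the Pdgfc start.
Pdgfra: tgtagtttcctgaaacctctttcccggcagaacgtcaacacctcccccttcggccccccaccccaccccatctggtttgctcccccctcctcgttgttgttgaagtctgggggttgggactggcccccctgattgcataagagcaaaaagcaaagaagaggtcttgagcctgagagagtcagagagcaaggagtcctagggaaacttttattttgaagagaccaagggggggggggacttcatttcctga
Pdgfc: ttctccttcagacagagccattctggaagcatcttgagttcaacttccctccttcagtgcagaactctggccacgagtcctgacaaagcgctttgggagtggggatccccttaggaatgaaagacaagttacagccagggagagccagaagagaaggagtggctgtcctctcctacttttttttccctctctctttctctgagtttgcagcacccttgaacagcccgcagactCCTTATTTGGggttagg

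The search covered both strands of windows of 300 bases, 250 before and 50 after the start, for a TATA box written TATAAA, the NF-Y site written CCAAT, the SP1 site written GGGCGG, the AP-1 site written TGACTCA, and the CArG box, which can contain the TATA letters. Over all 32851 windows of the table, 1.63% held a CArG box, 13.6% a TATA box, 37.4% an NF-Y site, 35.7% an SP1 site and 5.2% an AP-1 site. The Pdgfra window held none of them. Both Pdgfa windows held an SP1 site and the Pdgfd window a TATA box. Windows of 4 of the members are described, and none of Pdgfb or Pdgfrb. A match describes letters in the window and is not evidence of binding.

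Several facts about the arrays touch every value below. A level is called measured here when it reaches a floor of 5.41, the median over every probe set and array. A gene is called higher or lower when it differs by at least 1 on the log2 scale, which is 2-fold, and the highest of all the arrays compared reaches the floor. A hairpin array had to pass against the vector array and the untreated array, called the controls, in 1 direction. Where controls are given in brackets, the vector array comes before the untreated array. Neither hairpin target was 2-fold below both controls on the array of its own label: Mical2 read 5.53 on the array labelled Mical2 (controls 5.14 and 5.60), and Mical3 read 7.24 on the array labelled Mical3 (controls 7.29 and 7.39). For Mical2 the vector array was under the floor and the untreated array just above it. The other Mical2 probe set was under the floor on both controls, at 4.64 and 5.33. A 2-fold drop could hardly be seen from such levels, so these values cannot decide whether Mical2 was reduced. The hairpin arrays are therefore named by their labels only. For a difference between 2 arrays, the standard deviation of a single probe set was 0.24 to 0.36. It was taken from the disagreement of the 2 brightest probe sets of a gene, over 5198 genes, and is called the probe set spread. It holds no variation between replicates, so it is not the full error. The endothelial label was not borne out by several defining transcripts. Of 14 endothelial markers, 9 stayed under the floor on all 4 arrays, among them Pecam1 (3.46 to 3.88) and Cdh5, VE-cadherin (3.95 to 4.50). Flt1, a VEGF receptor, at 7.70 to 7.76, and Eng, endoglin, at 7.31 to 7.58, lay above it.

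Pdgfrb, the receptor of mural and other mesenchymal cells, had the widest spread of the 6 members. It read 10.28 (untreated), 8.13 (vector), 10.71 (labelled Mical2) and 3.55 (labelled Mical3). The array labelled Mical3 was under the floor, the vector array stood between, and the untreated array and the array labelled Mical2 were high. The array labelled Mical3 was lower than the untreated array by at least 29.2-fold and lower than the vector array by at least 6.59-fold, with its level taken at the floor. As deposited, the log2 differences were -6.73 and -4.58, taken against a level under the floor.

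The other Pdgfrb probe set showed the same order of the arrays over a narrower range. It read 6.97 (untreated), 5.94 (vector), 7.32 (labelled Mical2) and 5.56 (labelled Mical3). Its difference between the array labelled Mical3 and the vector array was -0.38, close to the probe set spread of 0.36 for that comparison, against -1.41 from the untreated array. The Pdgfrb call against both controls therefore rests on the brighter probe set.

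Pdgfra, which encodes the receptor of PDGF-A and PDGF-C and marks fibroblasts, was low on the vector array as well as for the label Mical3. It stood at 10.40 (untreated), 6.16 (vector), 9.88 (labelled Mical2) and 7.07 (labelled Mical3). The vector array and the array labelled Mical3 were low and the other 2 high. The vector array was 18.9-fold below the untreated array, a log2 difference of -4.24, and the array labelled Mical3 was lower than the untreated array by 10.1-fold. From the vector array to the array labelled Mical3 the difference was 0.91, short of 2-fold.

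Its 2 other probe sets, which crossed the floor, read 5.75 and 5.67 (untreated), 4.89 and 5.15 (vector), 5.51 and 6.40 (labelled Mical2), and 5.13 and 4.86 (labelled Mical3). Compared with the untreated array, all 3 Pdgfra probe sets were lower on the vector array and lower for the label Mical3. For the vector array the dimmer 2 differed by -0.86 and -0.52, short of 2-fold, so the size of the drop rests on the brightest. They were not of 1 sign between the vector array and the array labelled Mical3, where 2 were higher on the latter and 1 lower.

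**Figure D1:**
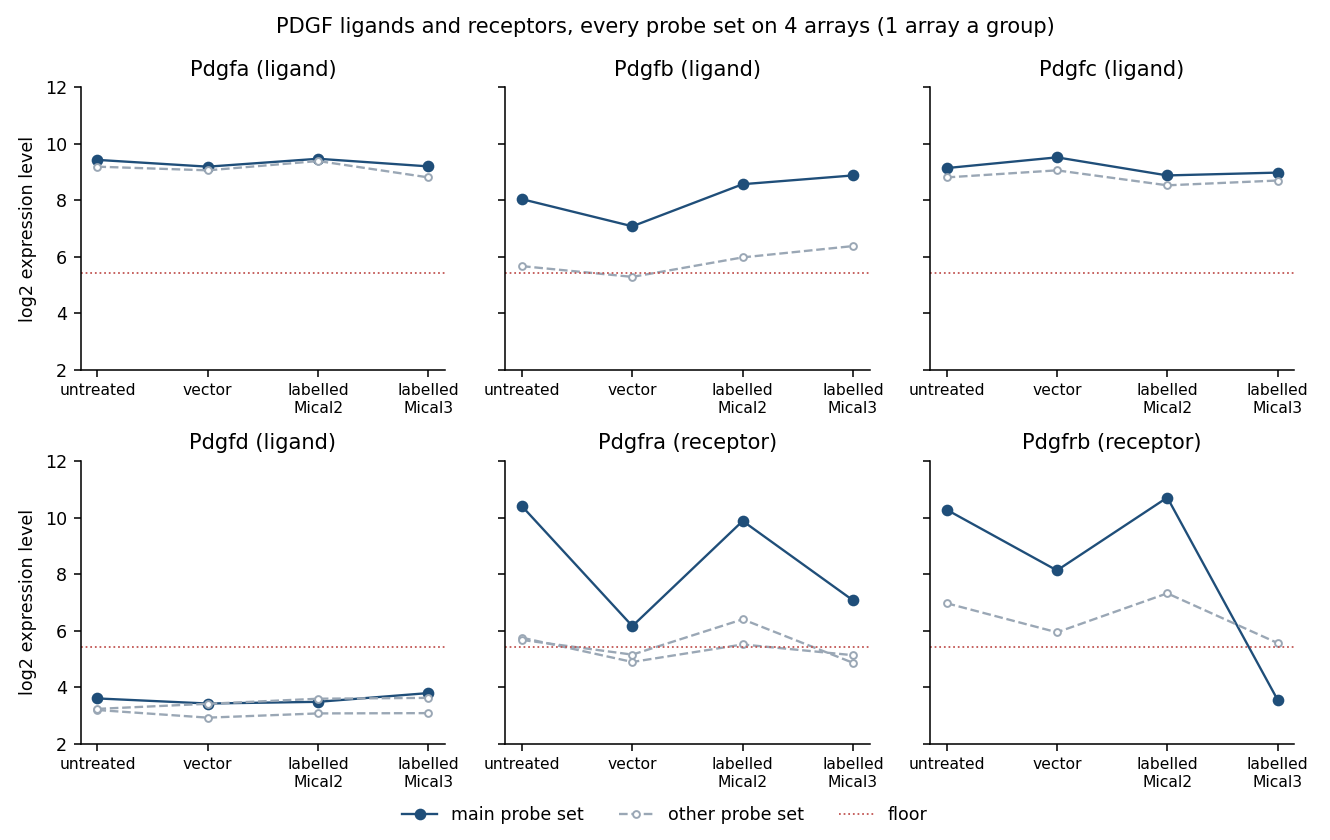
Log2 expression level (y axis) of every probe set of the 6 members on the 4 arrays (x axis), with the probe set used for the gene filled, the others open and the floor of 5.41 dotted; lines only join values of 1 probe set. Pdgfrb is at 3.55 on the array labelled Mical3 and Pdgfra at 6.16 on the vector array, while every value of Pdgfa and Pdgfc lies between 8.53 and 9.52.

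Pdgfb, the ligand of both receptors and the one that endothelial cells use to recruit pericytes, had the widest spread of the ligands. It read 8.04 (untreated), 7.08 (vector), 8.57 (labelled Mical2) and 8.88 (labelled Mical3). The vector array was the lowest and the array labelled Mical3 the highest, which is the array where Pdgfrb was lowest. Against the vector array alone, the array labelled Mical3 was higher by 1.80 and the array labelled Mical2 by 1.49. Against the untreated array these differences were 0.84 and 0.53, so that neither passed against both controls. The second Pdgfb probe set gave the same order, with 5.67, 5.29, 5.98 and 6.38 on the untreated array, the vector array and the arrays labelled Mical2 and Mical3.

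Pdgfa, a ligand of PDGFR-alpha, differed little. Its levels were 9.43 (untreated), 9.19 (vector), 9.47 (labelled Mical2) and 9.20 (labelled Mical3), a range of 0.28 that 9914 of the 12166 genes reaching the floor on any array exceeded. Its second probe set read 9.19, 9.06, 9.39 and 8.81 in that order. Pdgfc, another ligand of PDGFR-alpha, read 9.14 (untreated), 9.52 (vector), 8.88 (labelled Mical2) and 8.98 (labelled Mical3). It was highest on the vector array, where Pdgfb and Pdgfra were lowest, and both of its probe sets were lower on each hairpin array than on either control. The differences, between -0.16 and -0.64 for the main probe set, were all short of 2-fold. Pdgfd, the ligand of PDGFR-beta alone, stayed under the floor on every array and in all 3 probe sets, at 2.92 to 3.79.

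In the comparison of the Mical2 hairpin with both controls, none of the 6 members was called, where 2.73% of the 12072 genes tested were. The design asks which transcripts change when this actin-oxidising enzyme is reduced. Both receptors were close to the untreated array there, with differences of -0.52 for Pdgfra and 0.43 for Pdgfrb. From the vector array they were higher by 3.72 and 2.58. Against the vector array alone 3 members, Pdgfb, Pdgfra and Pdgfrb, were called higher, against 3.82% of genes called higher in that setting.

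In the comparison of the Mical3 hairpin with both controls, Pdgfrb was the 1 member called, as lower, with 2.49% of the 12011 genes tested called lower. With the untreated array as the only control Pdgfra was called lower too, where 3.72% of genes were. Against the vector array alone Pdgfb was called higher, where 4.64% of genes were, and Pdgfrb lower, where 7.13% of genes were. Pdgfrb was also the 1 member on any array that stood apart from the other 3 arrays in 1 direction, a position that 1.57% of genes shared as lower on the array labelled Mical3.

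Compared with the untreated array, the vector array had both receptors lower and no member higher, beside 2.57% of 11849 genes called lower. The log2 differences were -4.24 for Pdgfra and -2.15 for Pdgfrb, and Pdgfb, at -0.96, lay just outside the 2-fold limit while Pdgfrb was the member nearest inside it. After a loess fit Pdgfb was at -1.04, and the members lower on the vector array were then 3, as they were at 1.5-fold. Over all genes, calls for the vector in either direction numbered 691 in the main setting, 674 after the loess fit and 2084 at 1.5-fold. Between the hairpin arrays, both receptors were higher on the array labelled Mical2, by at least 39.4-fold for Pdgfrb, with its dim level taken at the floor, and by 2.81 on the log2 scale for Pdgfra, where 3.81% of 11928 genes were higher. Some of these comparisons share arrays, and the members were listed with earlier results of these data known, so these counts describe the arrays.

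The genes whose pattern over the 4 arrays lay nearest to a member's were found by the Euclidean distance between levels centred on each gene's mean. Distances were taken to the other 12165 genes that reached the floor on any array. Predicted genes without a proper name were then skipped, so a skipped gene may lie nearer than those named. With 4 points, these distances describe the arrays, and levels under the floor were used as deposited. Genes picked this way resemble the member by selection, so a shared low or high array is no separate result. Nearest to Pdgfrb was Col1a2 (a type I collagen chain), at a distance of 1.12, with 14.49 (untreated), 11.64 (vector), 14.06 (labelled Mical2) and 6.19 (labelled Mical3). Prrx2, a homeobox factor of mesenchyme, followed at 1.68 and Gatm, an enzyme of creatine synthesis, at 1.86. The array labelled Mical3 was the lowest for all of them, Prrx2 reading 4.76 and Gatm 3.23 there.

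Nearest to Pdgfra were Igf1, an insulin-like growth factor (distance 0.89), Col3a1, type III collagen (0.92), and Postn, the matrix protein periostin (0.93). Igf1 read 9.01, 5.79, 9.55 and 6.05 on the untreated array, the vector array and the arrays labelled Mical2 and Mical3. All 4 Igf1 probe sets and both Col3a1 probe sets were low on the vector array and also on the array labelled Mical3. Nearest to Pdgfb were Trav9d-3 (0.09), whose main probe set is open to cross-hybridisation, Dipk2a (0.10) and Col4a2, a basement membrane collagen (0.15). Col4a2 read 10.14, 9.04, 10.68 and 11.04 in the same order, so that it too was lowest on the vector array and highest on the array labelled Mical3.

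**Figure D2:**
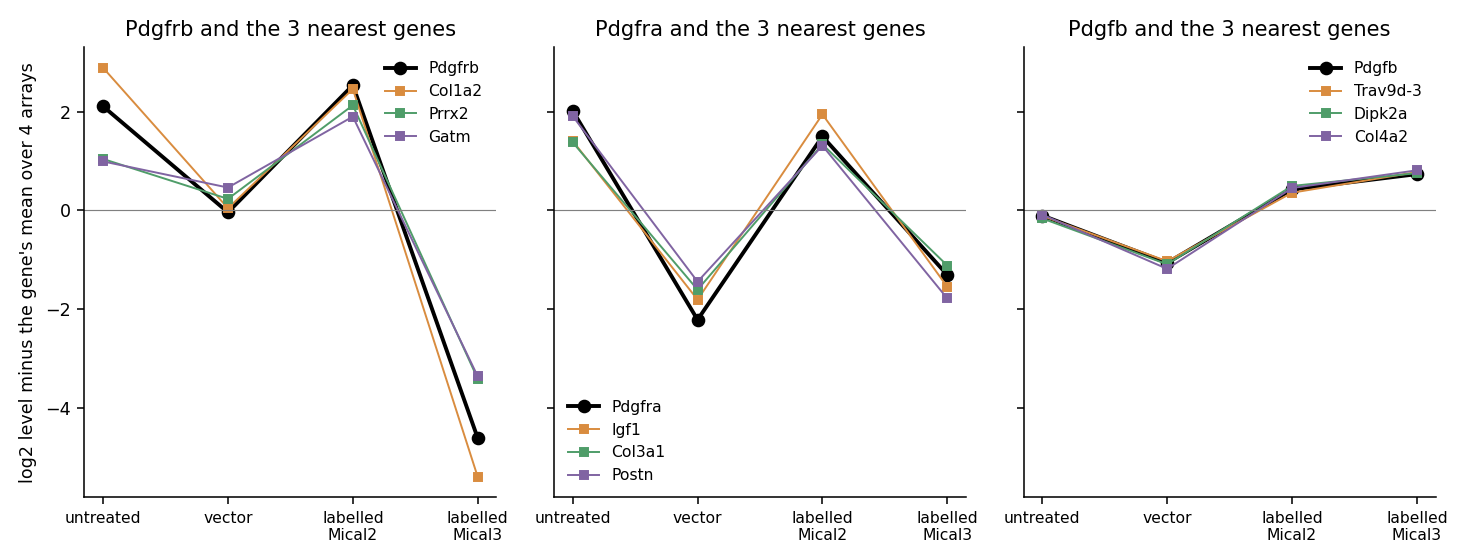
Log2 level minus the gene's own mean (y axis) on the 4 arrays (x axis). Pdgfrb, Pdgfra and Pdgfb are in black, each with its 3 nearest genes in colour, predicted genes without a proper name skipped. Lines only join values of 1 gene. Pdgfrb and Col1a2 drop on the array labelled Mical3, Pdgfra and Igf1 on that array and the vector array, and Pdgfb and Col4a2 are lowest on the vector array.

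Several fibroblast markers were low where the receptors were. Of 14 listed, 10 were at or above the floor, and 6 of them were lower on the vector than on the untreated array, where 2.57% of all genes were: Col1a1, Col1a2, Col3a1, Dcn, Postn and Prrx1. The rest of the 10, Fbln1, S100a4, Twist2 and Dpt, were slightly higher there, by 0.05, 0.21, 0.30 and 0.39. The median difference of the 10 from the untreated array was -1.94 for the vector and -2.11 for the label Mical3, beside 0.03 and 0.01 over all genes at or above the floor. On the array labelled Mical3, 4 were lower than on both controls (2.49% of all genes), namely Col1a2, Prrx1, the mesenchymal factor Twist2 and the matrix protein gene Dpt. Twist2 stood at 6.09 there (controls 10.0 and 9.70). Dcn, decorin, read 12.79 there and 12.36 on the untreated array, and 10.52 on the vector array. The summed level of all 14 markers, as log2 of the linear sum, was 15.998 (untreated), 14.80 (vector), 16.03 (labelled Mical2) and 14.73 (labelled Mical3). S100a4, which was not called, is a large part of the 2 lower sums, at 14.22 (vector) and 13.92 (labelled Mical3). Lum, Thy1, Fap and Tcf21 were under the floor on every array, and the part of these markers in the receptor differences was not tested.

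**Figure D3:**
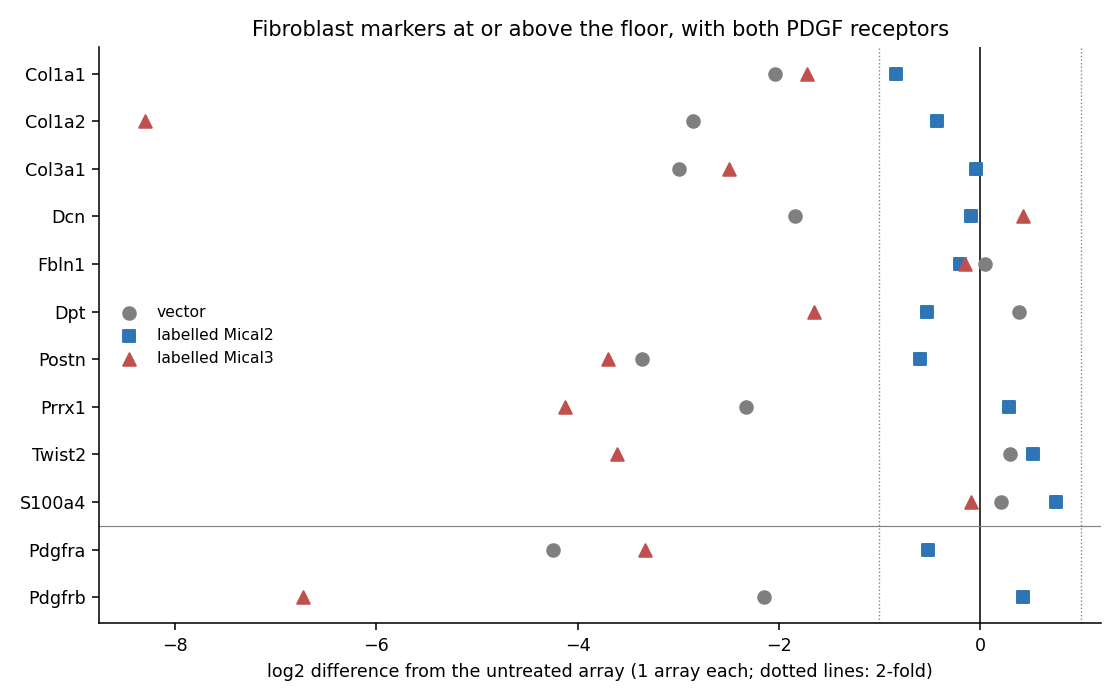
Log2 difference from the untreated array (x axis) of the 10 fibroblast markers at or above the floor and, under the line, both PDGF receptors (y axis), for the vector array (circles), the array labelled Mical2 (squares) and the array labelled Mical3 (triangles); dotted lines mark 2-fold. The squares all lie within 2-fold of the untreated array, while Pdgfra, Col3a1 and Postn lie far below it on both other arrays.

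Of the markers of pericytes and smooth muscle, the cells in which PDGFR-beta is best known, 2 were lower on the vector than on the untreated array, and 2 were called higher on the array labelled Mical3, where 1.38% of all genes were. Of 14 listed, 8 were under the floor on all arrays, including the pericyte genes Rgs5, Kcnj8 and Abcc9 and the smooth muscle gene Myh11, and the proteoglycan gene Cspg4 stayed between 6.25 and 6.40. Tagln, an actin-binding protein, was called higher on the array labelled Mical3, at 13.45 (controls 6.47 and 10.27), and so was the adhesion molecule gene Mcam (7.90, controls 6.04 and 6.84). Tagln and Acta2, smooth muscle actin, were the 2 lower on the vector array (2.57% of all genes). Notch3, a receptor of mural cells, differed there by 0.94, and Des, desmin, by 0.16. A dimmer Acta2 probe set read 4.55 (untreated), 4.03 (vector), 5.40 (labelled Mical2) and 6.21 (labelled Mical3). It was past 2-fold above both controls for the label Mical3, unlike the main Acta2 probe set. The summed level of the list was 13.85 (untreated), 11.85 (vector), 14.06 (labelled Mical2) and 15.09 (labelled Mical3). That sum is almost wholly Acta2 and Tagln, which alone summed to 15.06 on the array labelled Mical3, while the other 12 summed to between 8.93 and 9.31 over the 4 arrays. The part of these genes in the Pdgfrb difference was not tested.

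The remaining marker lists were mostly dim. No endothelial marker was called in any of the 4 comparisons, and the list's summed level lay between 9.70 and 9.73 on all 4 arrays. Of 5 lymphatic endothelial markers, 3 were under the floor, Prox1 and Lyve1 among them. Flt4, the receptor of VEGF-C, was called lower on both hairpin arrays, as were 1.75% and 2.49% of all genes on the respective array. It read 7.66 for the label Mical2 and 7.55 for the label Mical3 (controls 8.90 and 9.18). Its other probe set read 6.57 (untreated), 6.43 (vector), 6.04 (labelled Mical2) and 6.15 (labelled Mical3), all within 2-fold. The list's sum was 12.46 (untreated), 12.63 (vector), 11.78 (labelled Mical2) and 12.53 (labelled Mical3). That sum is mostly the bright marker Pdpn, which was not called and read 12.29, 12.50, 11.67 and 12.47 in the same order. White blood cell markers summed to between 8.28 and 9.07, with Ptprc, the pan-leukocyte CD45 gene, at 3.72 to 3.94 and Cd68 the 1 called, as higher on the vector array (8.0 against 5.93). Platelet markers summed to between 8.41 and 8.96, with the chemokine gene Ppbp lower on the vector array (4.12 against 5.75). Of all genes, 3.26% were called higher and 2.57% lower on the vector array.

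Genes that process or bind PDGF ligands came next in the pathway. Of 12 measured, 3 were called on the array labelled Mical3, where 3.87% of all genes were. Pcsk5, a proprotein convertase, was higher at 8.66 (controls 4.84 and 6.01) and Pcsk6, its relative, at 8.04 (controls 6.59 and 6.88). Lrp1, a scavenger receptor that binds PDGFR-beta, was lower at 7.74 (controls 9.38 and 9.54). The other Lrp1 probe set read 6.03 (untreated), 5.01 (vector), 5.63 (labelled Mical2) and 4.60 (labelled Mical3). For the label Mical3 it was past 2-fold below the untreated array but not the vector array. No gene of the list was called on the array labelled Mical2. The median difference from the untreated array was -0.08 for the label Mical2 and -0.125 for the label Mical3. On the vector array Pcsk5, Thbs1, thrombospondin, and Nrp1, a coreceptor, were lower than on the untreated array, as were 2.57% of all genes. Nrp1 differed by -1.01, at the limit, and its other probe sets by -0.51, -0.69 and -0.88, short of 2-fold. Furin, the general convertase, lay between 7.84 and 8.45, and Plat, tissue plasminogen activator, which activates PDGF-C, between 9.49 and 9.77. Plau, urokinase, which activates PDGF-D, crossed the floor, at 5.38 (untreated), 4.12 (vector), 6.05 (labelled Mical2) and 5.90 (labelled Mical3).

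Among the signalling proteins that the receptors recruit, 27 adaptors, kinases and other effectors were measured, all at or above the floor. By its main probe set, none was called in any of the 4 comparisons. A dimmer probe set of the adaptor gene Crk read 7.83 (untreated), 7.76 (vector), 9.09 (labelled Mical2) and 9.42 (labelled Mical3). It was more than 2-fold above both controls for each hairpin label, and no other Crk probe set was. The median difference of the list from the untreated array was -0.10 for the label Mical2 and 0.01 for the label Mical3. Of all genes, 2.73% were called for the Mical2 hairpin, 3.87% for the Mical3 hairpin, 5.83% for the vector and 7.53% between the hairpins, so that a count of 0 in 27 is close to the background. The largest differences from the vector array on the array labelled Mical3 were Stat5a, a transcription factor, at -1.32 and Pik3cb, a catalytic subunit of PI3-kinase, at 1.12. Against the untreated array these were -0.67 and 0.84. On the array labelled Mical2, Rasa1, which switches off RAS, was farthest from the vector array, at 1.04, and at 0.50 from the untreated array.

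Among 16 measured genes that restrain the receptors, 2 were called on the array labelled Mical3 and none on the array labelled Mical2, with median differences from the untreated array of 0.185 and 0.055. Over all genes 3.87% and 2.73% were called. Grb10, an adaptor that binds receptor kinases, was lower, at 4.34 (controls 9.64 and 9.67). For its 2 other probe sets, which no array took above the floor, the differences against the vector were -0.24 and -0.48. Spry2, a feedback inhibitor of ERK signalling, was higher at 9.47 (controls 7.35 and 8.24). That call rests on the main probe set. The other Spry2 probe set read 5.88 (untreated), 5.65 (vector), 5.58 (labelled Mical2) and 5.81 (labelled Mical3), all within 2-fold. A dimmer Spry4 probe set read 5.02 (untreated), 4.17 (vector), 5.86 (labelled Mical2) and 6.95 (labelled Mical3). It was more than 2-fold above both controls for the label Mical3, and no other Spry4 probe set was. The adaptor gene Grb14 read 8.17 (untreated), 8.76 (vector), 7.37 (labelled Mical2) and 7.52 (labelled Mical3), and the ubiquitin ligase gene Cblb 7.77, 8.50, 7.43 and 7.47. Both were more than 2-fold below the vector array for each hairpin label, and short of 2-fold below the untreated array.

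Early genes that PDGF induces in fibroblasts were called in both directions. On the array labelled Mical2, 2 of 18 were higher, Fos (10.40, controls 8.71 and 8.67) and Fosl1 (8.97, controls 7.54 and 7.38), against 0.977% of all genes. On the array labelled Mical3, Fos, Ier3 and the phosphatase gene Dusp1 were higher, and Egr2 and the chemokine gene Cxcl1 lower, beside 1.38% of all genes higher and 2.49% lower. Egr2 was dim, at 4.13 there, and of its controls (5.31 and 5.62) the untreated array alone reached the floor. Cxcl1 read 12.75 (untreated), 10.02 (vector), 10.49 (labelled Mical2) and 8.42 (labelled Mical3). All 3 Cxcl1 probe sets were highest on the untreated array and lowest on the array labelled Mical3. The list's median difference from the untreated array was 0.28 for the label Mical2 and 0.52 for the label Mical3, over its 17 genes at or above the floor, beside -0.03 and 0.01 over all genes at or above the floor.

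None of the related receptors of the same structural class was called by its main probe set. Kit was under the floor, at 4.05 to 4.48, Flt3 read 5.79 to 6.04 and Csf1r 6.51 to 6.84. Of the 2 other Csf1r probe sets, 1 read 5.98 (untreated), 4.89 (vector), 7.10 (labelled Mical2) and 5.89 (labelled Mical3), past 2-fold above both controls for the label Mical2, and the other differed there by 0.42 and 0.48. Kitl, the ligand of Kit, was called higher for the label Mical2, where 0.977% of all genes were, at 10.98 (controls 9.96 and 9.94). Pdgfrl, a secreted protein that resembles the PDGF receptors outside the cell, was called lower on both hairpin arrays, as were 1.75% and 2.49% of all genes on the respective array. It read 10.09 (untreated), 9.53 (vector), 8.36 (labelled Mical2) and 8.09 (labelled Mical3). Unlike both receptors, it was low on the array labelled Mical2.

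Of 19 transcription factors known to act on PDGF or PDGF receptor genes, Klf5, a Krüppel-like factor of smooth muscle that raises Pdgfa in vessels, was called higher on the array labelled Mical3 (9.72, controls 7.52 and 8.21). A dimmer Klf5 probe set read 5.12 (untreated), 4.42 (vector), 4.99 (labelled Mical2) and 5.41 (labelled Mical3), short of 2-fold above either control. The remaining Klf5 probe set stayed under the floor. Klf2, a flow-induced factor, was higher on the array labelled Mical2 (8.56, controls 7.39 and 6.95). Mycn was higher on both hairpin arrays by its main probe set, at 9.12 and 8.80 (controls 4.16 and 6.34), whereas on the array labelled Mical2 the differences of its dimmer 2 probe sets against the vector were 0.26 and 0.16. On the vector array, Klf4 was higher than on the untreated array (11.87 against 10.61) and Mycn lower, as were 3.26% and 2.57% of all genes. The shares of all genes called higher were 0.977% for the label Mical2 and 1.38% for the label Mical3. Srf read 9.13 (untreated), 8.70 (vector), 9.21 (labelled Mical2) and 9.43 (labelled Mical3). Whether SRF acts on Pdgfc, whose upstream stretch holds the CArG box shown above, was not tested.

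**Figure D4:**
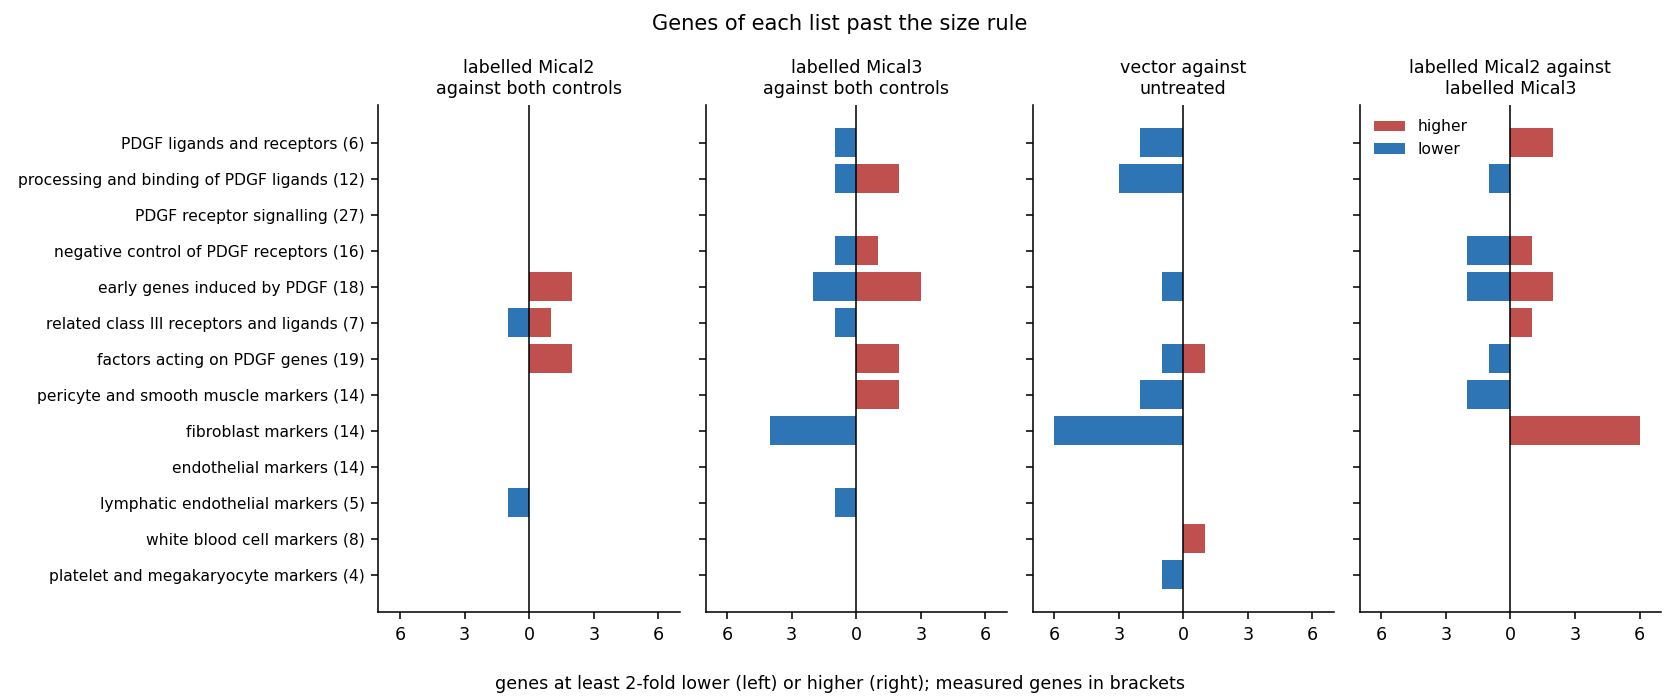
Number of genes (x axis) at least 2-fold higher (right, red) or lower (left, blue) in each list (y axis, measured genes in brackets), for 4 comparisons. Fibroblast markers have 6 lower genes for the vector and 4 for the label Mical3, and receptor signalling has none in any panel.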

How the data were processed

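Total RNA from SVEC4-10 cells was measured on 3′ expression arrays, 1 array for each of 4 groups, and per the labels each array held RNA pooled from 3 biological replicates. Deposited by the authors were log2 levels of each probe set, made with RMA (background correction, quantile normalization and probe summary), per the submitters' processing notes; its version and settings are not given in the sources used. Dim probe sets have compressed differences after RMA. The values were used without further scaling. Of 45101 probe sets, 34945 had 1 gene symbol and were used, 34741 of them updated through Entrez identifiers (RefSeq, GRCm38.p6). The highest mean chose the probe set of a gene.

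With 1 array a group, genes were called by size (2-fold, floor 5.41), and no p-value is given. Of each list, called genes or the members farthest from the vector array were named; other listed genes were named after their values were seen. The calling code was tested on simulated data. The members, lists and rules were chosen with earlier results of these data known. Listed genes without a single-symbol probe set were not analysed here. Alternatives were 1 control or the mean of both, a fold of 1.5 or 3, other floors, other probe sets, and other scalings. Python 3.11.15, pandas 2.3.3, numpy 2.4.6, statsmodels 0.14.6 and matplotlib 3.10.9 were used.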

Additional observations from a re-analysis of the deposited data

How the results depend on the processing

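The counts of members depended on the control array and on the fold. For the Mical2 hairpin the count of 0 became 3 (Pdgfb, Pdgfra and Pdgfrb) with the vector array alone and 3 with the mean of both controls. For the Mical3 hairpin the count of 1 became 2 with either control alone, 3 with the mean of both and 2 at 1.5-fold. For arrays apart from the other 3 the count of 1 became 3 at 1.5-fold and 2 after a loess fit. Over all genes, calls for the Mical2 hairpin went from 329 to 1286 with the vector array alone, 632 with the mean of the controls, 206 with a floor at the 75th percentile and 218 with the mean of probe sets. For the Mical3 hairpin they went from 465 to 1402 with the vector array alone and 862 with the mean of the controls. At 1.5-fold the counts were 979 for the Mical2 hairpin, 1323 for the Mical3 hairpin, 2084 for the vector, 2287 between hairpins and 2269 for arrays apart from the other 3. At 3-fold they were 112, 163, 195, 375 and 289. The floor at the 75th percentile gave 446 for the vector and 579 between hairpins. Of 216 differences of members recomputed under 6 other probe set choices and scalings, 195 moved by less than the probe set spread. No called difference changed sign. Part of that count could not move. No member's main probe set carries the suffix _s_at or _x_at, so dropping such probe sets left all 36 differences unchanged. The highest variance picked the main probe set again for Pdgfb, Pdgfc, Pdgfra and Pdgfrb. Averaging the probe sets moved 13 differences beyond the spread and 23 by less. With the mean of the probe sets, Pdgfrb on the array labelled Mical3 was -2.48 against the vector array and -4.07 against the untreated array, and Pdgfra on the vector array was -1.87 from the untreated array. No paired analysis was possible because each group has 1 array. Levels under the floor limit what can be said of Pdgfd and of Pdgfrb on the array labelled Mical3.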
